A study of Mus musculus with 4 samples.

Results

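The 53 genes described here encode enzymes that write or erase marks on histones, or members of the families of such enzymes, with Ing4, a subunit of an acetyltransferase complex. The list was drawn up with earlier results of these data known, although no measured value entered the rule. Its genes were taken by name from the 56748 genes counted in nuclei of mouse hippocampus. They comprise 10 classical histone deacetylases (4 of class I and 6 of classes II and IV), 4 sirtuins, 10 acetyltransferases with their subunit, 7 enzymes of the family that methylates lysine 4 of histone H3 (H3K4), 10 methyltransferases of H3 lysines 36, 9 and 79, and 12 lysine demethylases.

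Histone marks set how tightly DNA is packed and which genes can be read. Acetyl groups added by the Kat enzymes, Ep300 and Crebbp open chromatin, and deacetylases (Hdac) and the NAD-dependent sirtuins remove them. Methyl groups act by position: H3K4 methylation by Kmt2 and Setd1 enzymes marks promoters and enhancers of active genes, H3K9 methylation by Ehmt1, Ehmt2, Setdb1 and Suv39h2 goes with silencing, H3K36 methylation by Nsd enzymes and Setd2 covers transcribed genes, and Kdm enzymes take methyl groups off. In hippocampal neurons, acetylation by Crebbp and removal of it by Hdac2 and Hdac3 are well known for their roles in long-term memory.

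The 8 conditions were each represented by 1 pool of hippocampal nuclei from 3 male mice. In the diet experiment the mice ate vehicle chow or chow with PLX5622, an antagonist of CSF1R that depletes microglia, and were left undisturbed or exposed to repeated social defeat (RSD); its undisturbed pools are Control-Vehicle and Control-PLX5622, and its defeated pools Stress-Vehicle and Stress-PLX5622. In the genotype experiment the pools are Control-WT and Stress-WT, from IL-1R1+/+ mice without Cre, and Control-KO and Stress-KO, from nIL-1R1-/- mice in which Cre driven by Vglut2 (Slc17a6) deletes the interleukin-1 receptor Il1r1 in glutamatergic neurons. Nuclei were isolated 14 h after the last defeat, and nuclei of every pool were barcoded together and split over 4 sublibraries. RSD therefore had 4 control and stress pairs (Vehicle, PLX5622, WT and KO), while diet and genotype each rested on 2 pools against 2. No condition had a replicate pool. The p-values rest on how the RSD ratio varied between pairs that differ in diet, genotype or experiment, and not on spread between single mice. Diet and genotype were tested against that same spread.

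Of 57350 nuclei, 56834 were kept and 17 of 33 clusters were named from markers, with 22934 nuclei left in unnamed clusters. The INH-like class, which expressed Gad1, Gad2, Slc32a1 and Erbb4, was made of 3 clusters (3064, 1716 and 1028 nuclei), with 564 to 912 nuclei per pool. The median UMIs (unique transcripts) per INH-like nucleus ran from 700.5 in Control-PLX5622 to 6740 in Control-KO, both PLX5622 pools were shallow, and in the Vehicle pair the control pool was the deeper (3297 against 1690.5). Microglia-like nuclei numbered 13 to 45 in 6 pools and 0 in both PLX5622 pools, so the members were not compared in them. The targeted gene matched the labels, since Il1r1 in DG-like nuclei stood at 11.5 and 8.94 CPM (UMIs per 1e6 UMIs of that class in a pool) in the 2 KO pools and at 29.3 to 83.3 in the other 6. INH-like nuclei carried UMIs of markers of other cells, and the summed oligodendrocyte markers were at 342 CPM in Control-PLX5622 and at 144 to 187 in the other 7 pools.

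All 53 genes were matched by name in the mouse annotation (GRCm39, GENCODE vM39), and they run from 7.23 kb (Kat5) to 870 kb (Hdac9). A coding or long noncoding gene overlapped 43 of them on the other strand and 6 (Ing4, Kdm6b, Setd1a, Kmt2e, Kdm2b and Hdac9) on the same strand, and since the sources used here do not say whether strand was used in counting, reads of such partners may be among the counts of these genes. The 250 bases before the start of the Ensembl canonical transcript are shown for Kmt2d, Kdm6b and Setd1b, the members with the smallest p for RSD in INH-like nuclei after Hdac3, whose window is not shown. They show how far the windows of the members differ in GC boxes and CpG dinucleotides. Capitals mark GGGCGG or its reverse complement CCGCCC, the core of the GC box that Sp factors bind, and every sequence reads 5′ to 3′ on the strand of the gene.

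Kmt2d, chr15:98769086-98769335, minus strand: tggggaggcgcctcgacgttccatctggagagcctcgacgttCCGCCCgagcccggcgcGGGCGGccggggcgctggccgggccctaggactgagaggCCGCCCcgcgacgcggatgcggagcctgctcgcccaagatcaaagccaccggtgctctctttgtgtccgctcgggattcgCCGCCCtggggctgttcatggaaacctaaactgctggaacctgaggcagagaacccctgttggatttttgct
Kdm6b, chr11:69304502-69304751, minus strand: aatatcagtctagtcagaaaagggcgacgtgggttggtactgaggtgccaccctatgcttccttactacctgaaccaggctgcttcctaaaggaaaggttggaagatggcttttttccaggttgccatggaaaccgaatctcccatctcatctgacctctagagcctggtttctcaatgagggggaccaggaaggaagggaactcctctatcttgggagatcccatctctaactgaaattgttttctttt
Setd1b, chr5:123280006-123280255, plus strand: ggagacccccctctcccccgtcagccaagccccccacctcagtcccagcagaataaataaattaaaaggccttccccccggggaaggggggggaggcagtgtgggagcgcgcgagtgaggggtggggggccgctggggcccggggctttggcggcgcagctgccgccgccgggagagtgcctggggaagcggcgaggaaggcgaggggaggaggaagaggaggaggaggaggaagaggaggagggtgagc

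The window of Kmt2d held 4 GC boxes and 26 CpG dinucleotides, that of Setd1b 0 boxes and 15 CpG at 70.0% G and C, and that of Kdm6b 0 boxes and 3 CpG at 47.6%. Over the 53 members a GC box on either strand was present in 35 windows (66.0%), against 49.4% of the 11411 protein-coding genes tested in INH-like nuclei and 36.3% of all 21757 protein-coding genes. The median window held 17 CpG, against 13 and 8 in the same comparison sets. The full cAMP response element TGACGTCA, a palindrome that CREB binds, was present in 3 windows (5.66%, in Ing4, Nsd2 and Suv39h2), against 2.06% of the genes tested. Its 5-base core TGACG on either strand, which the full element contains, was present in 20 windows (37.7%), against 23.5%. These counts describe letters in 1 window per gene, that of its Ensembl canonical transcript, and say nothing about binding. For some members, such as Hdac9 and Sirt1, the start of that transcript lies inside the gene.

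The first comparison asked which members changed with RSD in inhibitory neurons. No member passed an adjusted p of 0.05 in INH-like nuclei, in which 1 of 12826 genes tested did (0.0078%, higher, with edgeR's quasi-likelihood test). Before adjustment, 10 of the 53 members were higher at p under 0.05 and 0 were lower, where 4.42% of all genes were higher and 3.7% lower. Without the Vehicle pair 6 were higher, in a fit whose share over all genes is not given here. The fitted log2 ratio of RSD to control was above 0 for 38 members and below 0 for 15, with a median of 0.10 against -0.0022 over all genes tested. In 15 members the ratio was above 1 in all 4 pairs, which held for 9.01% of all genes, and in 1 member, Kdm5b, it was below 1 in all 4, which held for 8.21%. Values for the members follow by role, in CPM of INH-like nuclei.

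**Figure D1:**
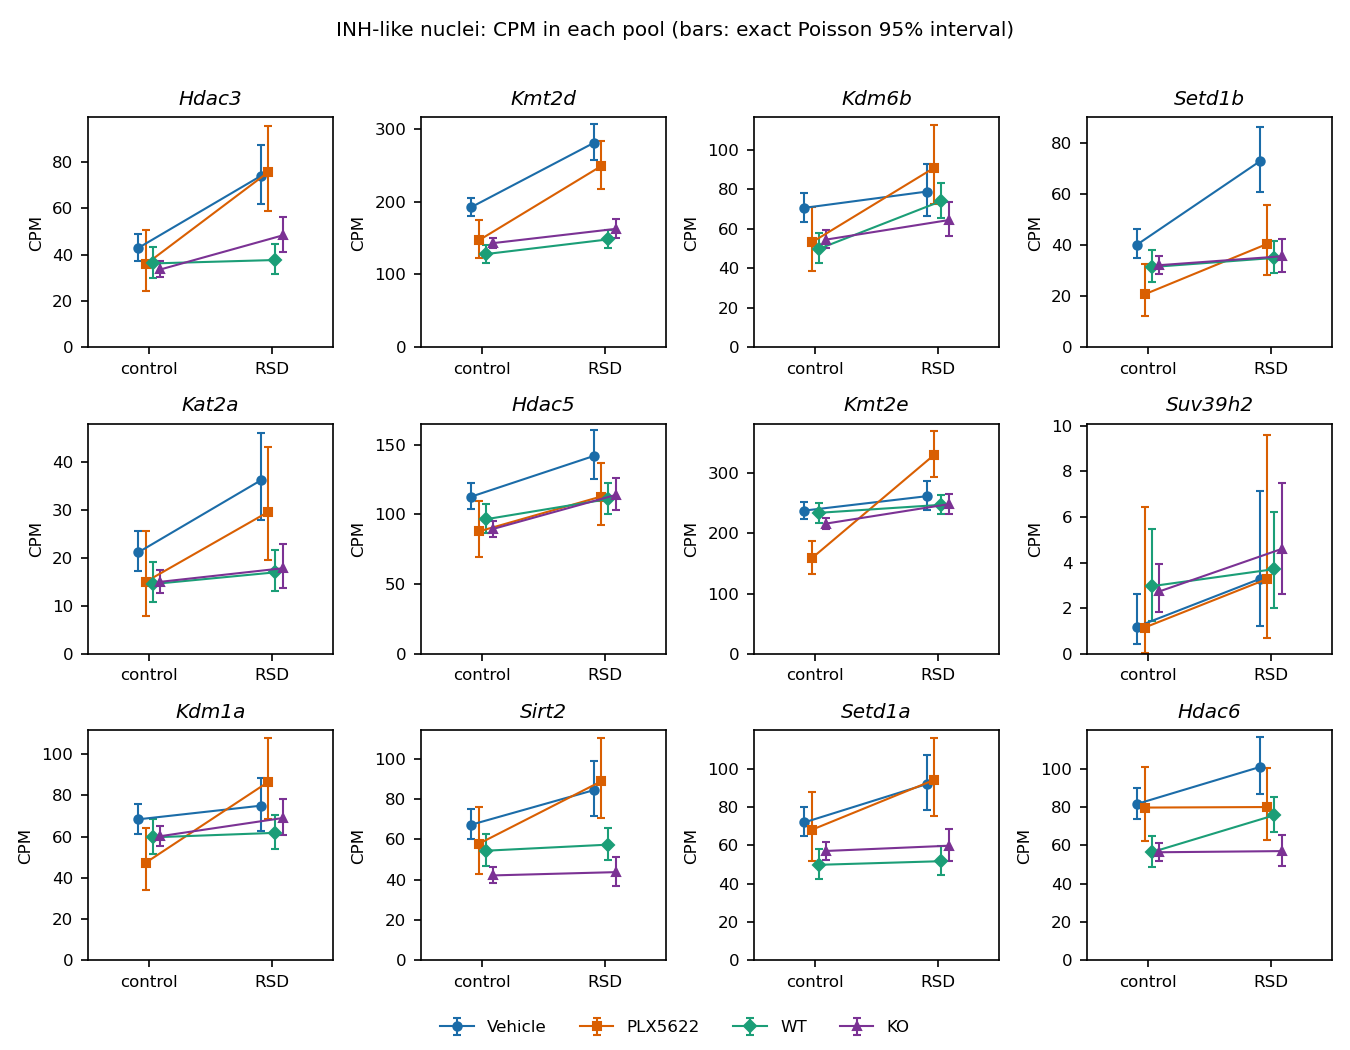
CPM in INH-like nuclei of 12 members that went the same way in all 4 pairs, 1 panel per gene, with control and RSD on the horizontal axis, a line for each pair (Vehicle, PLX5622, WT, KO) and exact Poisson 95% intervals as bars, which cover counting error only. For Kmt2d, Stress-Vehicle at 280 and Stress-PLX5622 at 249 stand above the other 6 pools, which lie between 128 and 192.

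The H3K4 methyltransferase family was the role group with the largest share of members higher. All 7 had a log2 ratio above 0, with a median of 0.31, and 5 of the 7 (Kmt2d, Setd1b, Kmt2b, Kmt2e and Kmt2a) were higher at p under 0.05 before adjustment. Kmt2d, which adds methyl groups at enhancers, was at 192, 147, 128 and 143 CPM in Control-Vehicle, Control-PLX5622, Control-WT and Control-KO. In the stress pools, in the same order, it was at 280, 249, 148 and 163. Each stress pool lay above its own control, but Stress-WT and Stress-KO lay within the range of the control pools. The means were 152 ± 27.7 (SD, n = 4) in control and 210 ± 64.6 (n = 4) in RSD pools, and the fitted log2 ratio was 0.38 ± 0.11 (SE), with an adjusted p of 0.409.

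Setd1b, a catalytic subunit of the COMPASS complexes that methylate promoters, was at 40.3, 20.8, 31.5 and 32.2 CPM in the control pools and at 72.8, 40.5, 35.1 and 35.7 in the RSD pools, both in the order used for Kmt2d. Stress-Vehicle was far above every other pool, and the log2 ratio was 0.44 ± 0.16 (adjusted p = 0.467). Kmt2b, another promoter methyltransferase, was at 88.4, 56.6, 64.1 and 70.0 in control pools and at 113, 143, 82.8 and 66.8 in RSD pools. It was lower with RSD in the KO pair and higher in the other 3, and its log2 ratio was 0.39 ± 0.15 (adjusted p = 0.495). Kmt2a, the founding member of the family, was at 543 and 520 in Stress-Vehicle and Stress-PLX5622, above the 314 to 415 of the 4 control pools, and at 353 and 325 in Stress-WT and Stress-KO, within that range. Kmt2e, a divergent member without clear methyltransferase activity, was the only one of the family with every RSD pool (247 to 330) above every control pool (158 to 237). RSD pools lay above all control pools for 2 of the 53 members, Kmt2e and Suv39h2, and for 1.42% of all genes tested. Setd1a (log2 ratio 0.20 ± 0.12, adjusted p = 0.728), higher in all 4 pairs, and Kmt2c (0.05 ± 0.10, 0.935) were also above 0.

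Among the class I deacetylases, which act mainly in the nucleus, Hdac3 had the smallest p of all 53 members. Hdac3, the catalytic subunit of nuclear receptor corepressor complexes, was at 42.9, 35.8, 36.2 and 33.6 CPM in control pools and at 73.9, 75.6, 37.7 and 48.3 in RSD pools. Both stress pools of the diet experiment were well above the rest, whereas Stress-WT was close to its control. The means were 37.1 ± 4.01 and 58.9 ± 18.8 (SD, n = 4 each), and the log2 ratio was 0.55 ± 0.15 with an adjusted p of 0.351. Hdac8 had the most UMIs of the class, and at 213 to 228 in control and 191 to 240 in RSD pools it differed by less than the spread of the pools (log2 ratio -0.03 ± 0.10, adjusted p = 0.958). Hdac1 and Hdac2, the paired enzymes of the NuRD, Sin3 and CoREST complexes, had log2 ratios of 0.20 ± 0.14 and 0.06 ± 0.17, with adjusted p of 0.759 and 0.958.

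Of the class II and IV deacetylases, which shuttle between nucleus and cytoplasm or act mainly in the cytoplasm, 1 of 6 was higher before adjustment. Hdac5, which leaves the nucleus on neuronal activity, was at 113, 87.7, 96.5 and 89.6 CPM in control pools and at 142, 113, 111 and 114 in RSD pools. It was higher in all 4 pairs by a similar amount, with log2 ratios per pair of 0.33, 0.36, 0.20 and 0.35, and a fitted value of 0.29 ± 0.11 (adjusted p = 0.473). Hdac6, the tubulin deacetylase, also had a ratio above 1 in all 4 pairs, though at 0.01 and 0.02 on the log2 scale in the PLX5622 and KO pairs it was barely so. Hdac9 had the most UMIs of all 53 members in this class of nuclei (18497). It was at 441 and 426 in Stress-Vehicle and Stress-PLX5622, below their controls at 562 and 514, and at 649 and 752 in Stress-WT and Stress-KO, next to controls at 670 and 635. It was thus lower with RSD in 3 pairs and higher in the KO pair, and the log2 ratio was -0.12 ± 0.11.

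No sirtuin was called before or after adjustment. Sirt2, a deacetylase that is mainly cytoplasmic and abundant in myelinating cells, was higher in all 4 pairs, at 67.2, 57.7, 54.3 and 42.1 CPM in control and 84.3, 88.7, 57.4 and 43.7 in RSD pools, and the groups overlapped (log2 ratio 0.22 ± 0.12, adjusted p = 0.704). Sirt1, Sirt3 and Sirt6 were sparse, with 263 to 430 UMIs each over the 8 pools.

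Among the acetyltransferases, Kat2a (GCN5, of the SAGA and ATAC complexes) was higher before adjustment, from 21.1, 15.0, 14.6 and 15.0 CPM to 36.1, 29.6, 17.0 and 17.8. It was higher in all 4 pairs, with log2 ratios per pair of 0.77 and 0.98 in the diet experiment and 0.22 and 0.25 in the genotype experiment, and a fitted value of 0.48 ± 0.17 (adjusted p = 0.473). Crebbp, the CREB-binding protein, had the most UMIs of the group and was higher in all 4 pairs, by 0.01, 0.33, 0.10 and 0.13 on the log2 scale, with a fitted log2 ratio of 0.12 ± 0.10 (adjusted p = 0.818). Ep300, its closest relative, was at 98.6 to 107 in control and 85.4 to 101 in RSD pools. Ing4, the subunit, and Kat8, the H4K16 acetyltransferase, had log2 ratios of 0.33 ± 0.18 and 0.37 ± 0.20, and both were widest apart in the PLX5622 pair, at 28.9 against 88.7 and 12.7 against 36.1.

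Ehmt2 (G9a), which dimethylates H3K9, was the member of the H3K36, H3K9 and H3K79 group that was higher before adjustment. It was at 57.4, 55.4, 33.0 and 42.5 CPM in control pools and at 96.4, 94.2, 40.6 and 42.0 in RSD pools, so that the stress pools of the diet experiment were above the rest and the KO pair stood at 42.5 and 42.0 (log2 ratio 0.40 ± 0.14, adjusted p = 0.469). Its partner Ehmt1 did not share this pattern and was at 197 ± 10.5 in control and 190 ± 30.9 in RSD pools (SD, n = 4 each). Nsd3, with the most UMIs of the group, was at 200 ± 24.0 and 209 ± 9.58. Suv39h2, which trimethylates H3K9, rested on 85 UMIs in all, with 1 to 29 per pool, and its separation between groups (1.15 to 2.97 against 3.28 to 4.60 CPM) is only as precise as those counts.

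The 12 demethylases were divided, with 6 above and 6 below 0 and a median log2 ratio of 0.0036. Kdm6b (JMJD3), which removes methyl groups from H3K27 and is induced by inflammatory and activity signals, was at 70.6, 53.1, 49.9 and 54.6 CPM in control pools and at 78.9, 90.9, 74.1 and 64.5 in RSD pools. It was higher in all 4 pairs, with means of 57.0 ± 9.26 and 77.1 ± 11.0 (SD, n = 4 each) and a log2 ratio of 0.38 ± 0.13 (adjusted p = 0.447). Only Stress-KO fell inside the range of the controls. Kdm1a (LSD1) was also higher in all 4 pairs (log2 ratio 0.23 ± 0.13, adjusted p = 0.691). Kdm4c, with the most UMIs of the group, had a log2 ratio of -0.16 ± 0.11 (adjusted p = 0.750), and Kdm5b, an H3K4 demethylase, of -0.12 ± 0.11 (adjusted p = 0.826).

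**Figure D2:**
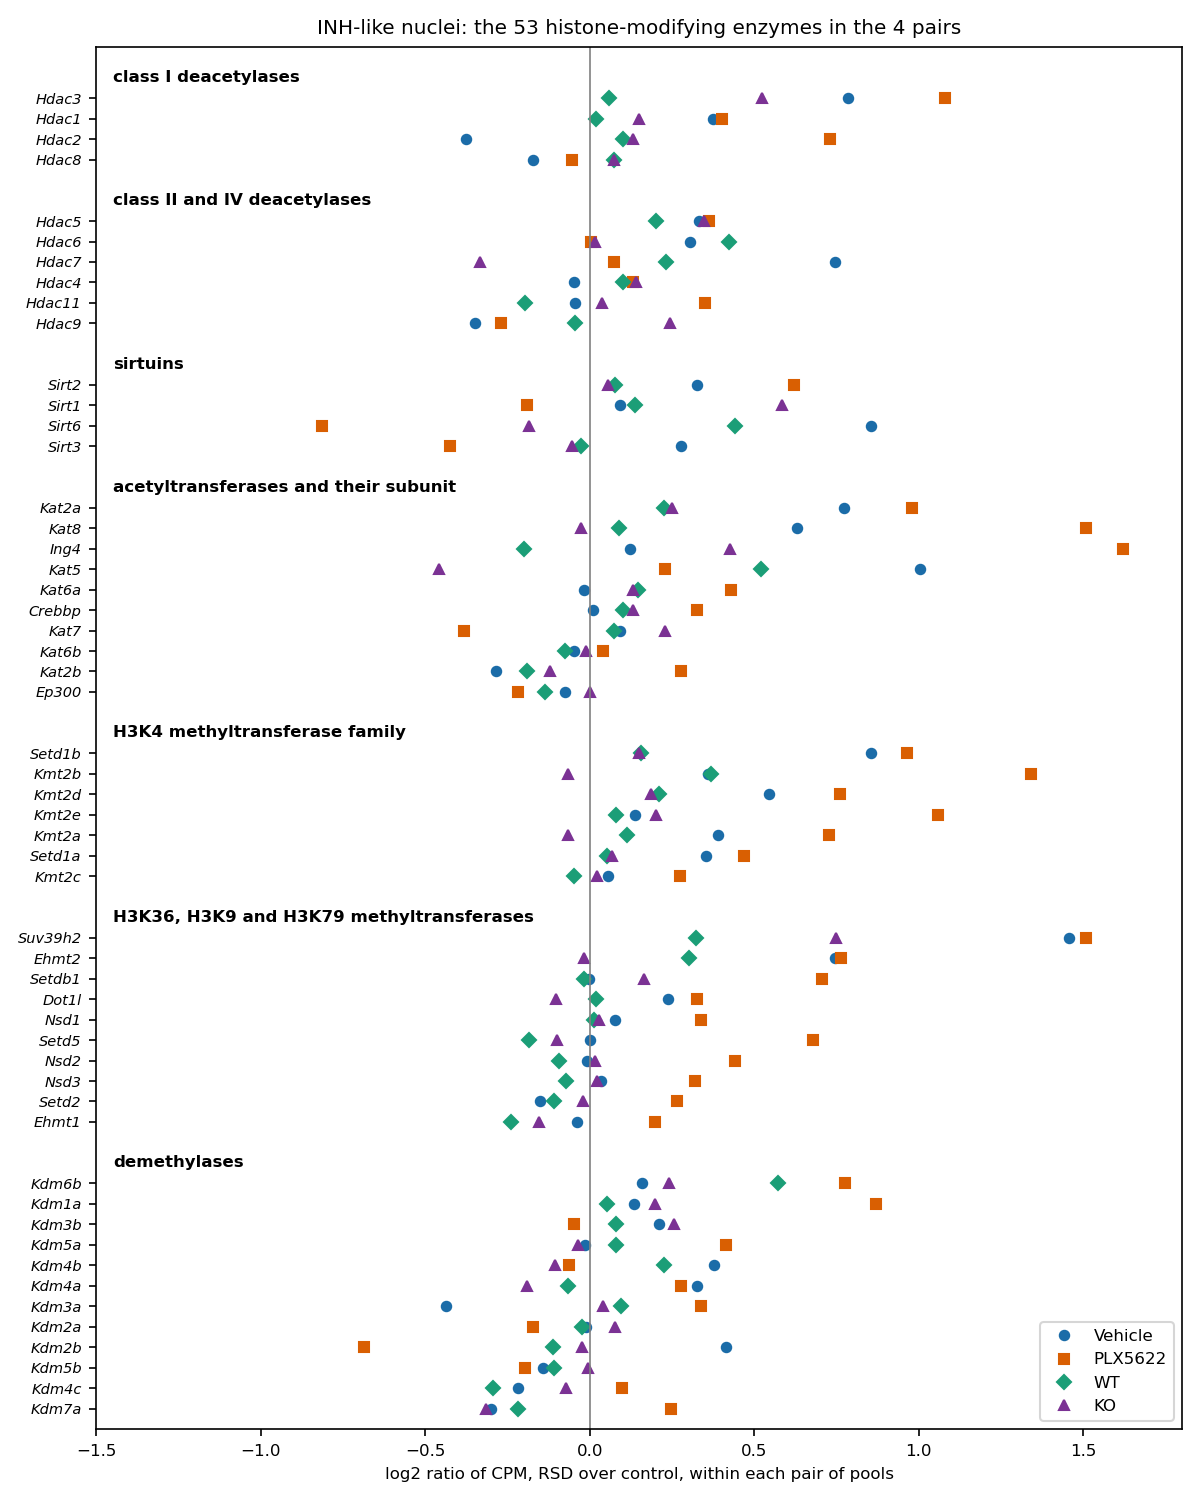
Log2 ratio of RSD to control CPM within each pair of pools, on the horizontal axis, for the 53 members in INH-like nuclei, 1 row per gene grouped by role, with a symbol for each pair (Vehicle, PLX5622, WT, KO). The points of the Vehicle and PLX5622 pairs lie farthest to the right, with medians over the members of 0.12 and 0.33, against 0.07 and 0.03 for the WT and KO pairs.

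The higher levels were mostly those of the diet experiment. The median log2 ratio of the members was 0.12 and 0.33 in the Vehicle and PLX5622 pairs and 0.07 and 0.03 in the WT and KO pairs, against 0.02, 0.07, -0.02 and 0.0019 over all genes in the same pairs. The fits of each experiment alone were added after the data had been seen, so their calls are not independent of the ratios that prompted them. A fit on either experiment alone leaves 1 residual degree of freedom in every class, and its p-values rest mostly on spread shared over genes. On the diet experiment alone, 5 of the 52 members tested were higher with RSD at an adjusted p under 0.05, where 1.29% of 9516 genes were higher. These were Hdac3 (log2 ratio 0.85 ± 0.22, adjusted p = 0.0162), Kmt2d (0.60 ± 0.16, 0.0300), Kmt2b (0.70 ± 0.19, 0.0335), Setd1b (0.85 ± 0.24, 0.0390) and Ehmt2 (0.72 ± 0.20, 0.0411). Fitted on the genotype experiment alone, 0 of 53 members passed, where 0.557% of 12021 genes were higher, and 2 were higher at an unadjusted p under 0.05 (4.1% of all genes), namely Kdm6b (log2 ratio 0.40 ± 0.15, adjusted p = 0.254) and Hdac5 (0.28 ± 0.13, 0.469).

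The difference between the experiments was itself tested as an interaction of RSD with experiment, and no member passed in INH-like nuclei, where 1 gene did (0.0078%). Before adjustment, 5 members had a larger ratio in the diet experiment (Setd1b, Kmt2a, Ehmt2, Kat8 and Kmt2d; 4.46% of all genes) and 1, Hdac9, a smaller one (3.64% of all genes). For Setd1b the log2 ratio was 0.70 ± 0.26 larger (adjusted p = 0.522). For Kdm6b the 2 experiments differed by -0.06 ± 0.24 and for Hdac5 by 0.03 ± 0.20. The experiments also differ in mice and in depth, with 866260 to 5013228 UMIs in the INH-like pools of the diet experiment and 3367497 to 10591541 in those of the genotype experiment, and the part of depth in these ratios was tested only by thinning every nucleus to 500 UMIs. Thinned, the log2 ratios for RSD over the 4 pairs were 0.40 for Kmt2d, 0.47 for Hdac3, 0.46 for Ehmt2, 0.52 for Setd1b and 0.64 for Kdm6b, and no member was called, as before thinning. The members higher with RSD at an unadjusted p under 0.05 went from 10 to 5. In the interaction with experiment, the 5 members with a larger ratio before adjustment became 2 with thinned nuclei. The shares of all genes with thinned nuclei are not given here, so these drops cannot be set against them. Thinning also changed which nuclei were compared, since 65.1% of INH-like nuclei in Control-PLX5622 and 100% in Control-KO held 500 UMIs.

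The 3 INH-like clusters were next fitted one by one. In the cluster with Lhx6 and Nxph1 among its leading genes (3064 nuclei), 9 of 52 members were higher and 0 lower at an unadjusted p under 0.05 (4.89% and 3.92% of all genes), led by Hdac3 (log2 ratio 0.71, adjusted p = 0.153), Ehmt2 (0.58, 0.155) and Kdm6b (0.53, 0.206). In the cluster with Adarb2 and Vip (1716 nuclei) 4 of 52 were higher (2.66% of all genes), namely Kmt2d, Hdac5, Kmt2e and Sirt1. In the cluster with Egfr and Hapln1 (1028 nuclei) 1 of 49 was higher (3.36%), Kmt2b. All 7 H3K4 family members had a log2 ratio above 0 in each of the 3 clusters, with medians of 0.27, 0.30 and 0.18. The 3 clusters make up the INH-like class and come from the same pools, and all 7 were already above 0 in that class. The signs in the clusters are therefore not independent of that result or of one another. The share of all genes above 0 in all 3 clusters is not given here. No member was called after adjustment in any of them (0.0445%, 0.0113% and 0.0149% of all genes in either direction), and whether the clusters differ was not tested.

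The same comparison in the excitatory classes gave the only member that passed adjustment over all 4 pairs. In CA2/3-like nuclei Kmt2d rose by a log2 ratio of 0.66 ± 0.14 (adjusted p = 0.0353), where 0.699% of 11451 genes rose and 0.114% fell. Kmt2d was at 206, 116, 117 and 146 CPM in Control-Vehicle, Control-PLX5622, Control-WT and Control-KO and at 361, 288, 162 and 181 in the matching stress pools. It was higher in 4 of 4 pairs, most in the diet experiment, and the pools of the 2 groups overlapped. The call was lost in the fit without the pairing of pools (log2 ratio 0.70, adjusted p = 0.431), without the Vehicle pair (log2 ratio 0.60, adjusted p = 0.596), without the PLX5622 pair (0.52, 0.0722), without the KO pair (0.79, 0.0555), with nuclei thinned to 500 UMIs (0.66, 0.0751) and with clusters made at a resolution of 0.6 (0.66, 0.114). The call was also absent in the genotype experiment alone (0.37, 0.0954). It held without the WT pair (0.72, 0.00918) and in the diet experiment alone (0.96, 2.28e-06). The fits of 1 experiment alone leave 1 residual degree of freedom, so their p-values rest mostly on spread shared over genes.

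**Figure D3:**
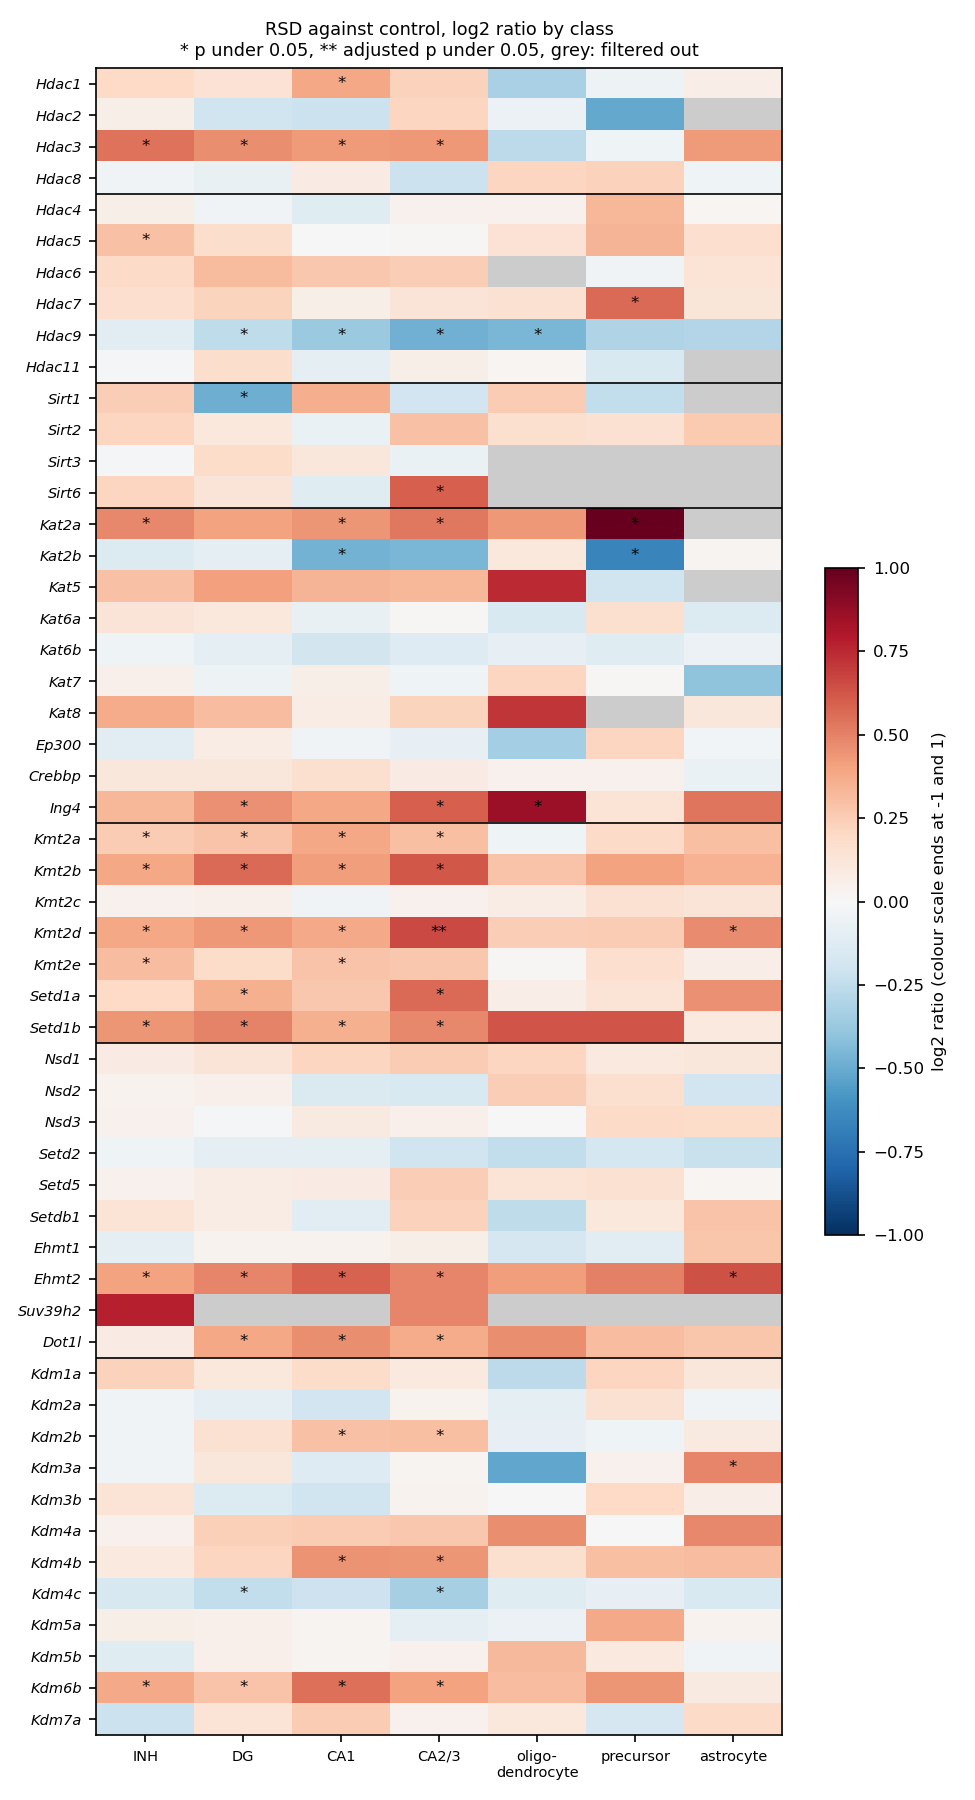
Log2 ratio of RSD to control from the fit over 4 pairs, as color from -1 to 1, for each of the 53 members (rows, grouped by role) in 7 classes of nuclei (columns), with 1 asterisk for an unadjusted p under 0.05, 2 for an adjusted p under 0.05 and grey where the gene was filtered out. Kmt2d in CA2/3-like nuclei, at 0.66, is the only entry with 2 asterisks.

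Before adjustment, 14 of 53 members were higher and 2 lower in CA2/3-like nuclei (9.01% and 6.11% of all genes). Kmt2b (log2 ratio 0.62 ± 0.16, adjusted p = 0.0563) and Ing4 (0.60 ± 0.16, 0.0753) were the next highest, and Hdac9 (-0.48 ± 0.13, 0.0693) was the lowest. Ing4 was at 35.7 to 51.4 CPM in control pools, at 92.5 and 127 in Stress-Vehicle and Stress-PLX5622 and at 46.6 and 42.4 in Stress-WT and Stress-KO. Hdac9 was at 412 to 501 in control pools, at 242 and 266 in the stress pools of the diet experiment and at 388 and 423 in those of the genotype experiment. Both genes thus separated in the diet experiment, in opposite directions. Every RSD pool lay above every control pool for Kdm2b (101 to 116 CPM against 74.7 to 100), as for 2.09% of all genes, and below for Kdm4c (81.4 to 106 CPM against 113 to 123) and Kat2b, as for 2.57%.

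In CA1-like nuclei no member passed (0.254% of 11398 genes did), and 13 of 52 were higher and 2 lower before adjustment (7.39% and 5.5% of all genes). Kdm6b was closest (log2 ratio 0.55 ± 0.13, adjusted p = 0.0539), and all 4 RSD pools, at 92.5 to 118 CPM, lay above all 4 control pools, at 60.9 to 77.0. RSD pools lay above all control pools for 2 members in CA1-like nuclei, Kdm6b and Kdm1a, and for 2.14% of all genes. Ehmt2 followed (0.59 ± 0.16, adjusted p = 0.0987), at 34.4 to 59.0 in control pools, at 104 and 107 in the stress pools of the diet experiment and at 47.1 and 45.8 in those of the genotype experiment. Hdac9 had a log2 ratio of -0.37 ± 0.12 (adjusted p = 0.164).

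In DG-like nuclei no member passed (0.085% of 11765 genes did), and 10 of 52 were higher and 3 lower before adjustment (6.92% and 5.07% of all genes). Kmt2b (log2 ratio 0.57 ± 0.15, adjusted p = 0.0997), Kmt2d (0.43 ± 0.11, 0.103) and Ehmt2 (0.49 ± 0.14, 0.156) were first. Sirt1 was the member with every RSD pool (10.6 to 12.5 CPM) below every control pool (14.5 to 18.3), at a log2 ratio of -0.49 ± 0.20 (adjusted p = 0.318) on 369 UMIs, where 2.22% of all genes were arranged so. Most DG-like nuclei of both PLX5622 pools and of Stress-Vehicle came from the shallower of the 2 DG-like clusters, and the part of this in the ratios was not tested.

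The H3K4 family was again the role group with the most members higher before adjustment in each excitatory class, with 5 of 7 in DG-like, CA1-like and CA2/3-like nuclei and median log2 ratios of 0.36, 0.36 and 0.48. The 4 neuronal classes come from the same pools, so these counts are not independent of one another. On the diet experiment alone, 9 of 52 members were higher in DG-like nuclei (2.73% of 9832 genes), 6 of 51 in CA1-like (2.84% of 8137) and 12 of 49 in CA2/3-like (6.69% of 8340), with Hdac9 lower in the last (4.71%). Kmt2a, Kmt2b, Kmt2d, Ehmt2 and Dot1l, the H3K79 methyltransferase, were among them in all 3 classes. On the genotype experiment alone, 1 member passed in CA2/3-like nuclei, Kdm2b, an H3K36 demethylase of a Polycomb complex (log2 ratio 0.49 ± 0.13, adjusted p = 0.0248; 0.659% of 11379 genes were higher), and 0 passed in DG-like and CA1-like nuclei (0.217% and 0.35%). The calls of both experiments come from fits with 1 residual degree of freedom and rest mostly on spread shared over genes.

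The interaction of RSD with experiment called no member in these classes (0.11% of genes in DG-like, 1.27% in CA1-like and 1.19% in CA2/3-like nuclei were called). Nearest were Kmt2b in CA1-like nuclei (0.80 ± 0.24 larger in the diet experiment on the log2 scale, adjusted p = 0.0606), Ing4 in the same class (0.81 ± 0.26, 0.0826) and, in CA2/3-like nuclei, Ehmt2 (0.90 ± 0.26, 0.0647), Kmt2a (0.64 ± 0.19, 0.0728) and Hdac9 (-0.60 ± 0.18, 0.0802).

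In glia no member was called for RSD in oligodendrocyte-like (0.0311% of 6422 genes were), oligodendrocyte precursor-like (0.0656% of 7624) or astrocyte-like nuclei (0.448% of 5809), with 49, 49 and 45 members tested. Before adjustment 1, 2 and 3 members were higher and 1, 1 and 0 lower (of all genes 3.02%, 3.95% and 4.41% were higher and 2.54%, 3.21% and 5.61% lower). Kmt2d was among them in astrocyte-like nuclei, at a log2 ratio of 0.47 ± 0.19 (adjusted p = 0.370), with 334 and 305 CPM in the stress pools of the diet experiment and 120 to 196 in the other 6 pools. Kdm3a, an H3K9 demethylase, had every RSD pool of astrocyte-like nuclei (99.5 to 149) above every control pool (75.5 to 93.8), on 11 to 67 UMIs per pool (0.48 ± 0.21, adjusted p = 0.402; 2.5% of all genes were arranged so), as did Nsd3 and Ehmt1. In oligodendrocyte precursor-like nuclei Kat2a had a log2 ratio of 1.12 ± 0.39 (adjusted p = 0.399) on 95 UMIs in all, with 0 in Control-PLX5622. Summed over all nuclei, 0 of 53 members were called (0.328% of 19815 genes were) and 13 were higher and 2 lower before adjustment (9.01% and 5.67%), and the makeup of each pool enters these sums.

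Diet was compared as both PLX5622 pools against both Vehicle pools. In INH-like nuclei no member and no other gene was called (0%), and 1 member was higher, Kdm5b (log2 ratio 0.38 ± 0.17), and 1 lower, Setd1b (-0.77 ± 0.26, adjusted p = 0.914), before adjustment, where 2.99% and 2.11% of all genes were. Setd1b was at 40.3 and 72.8 CPM in the Vehicle pools and at 20.8 and 40.5 in the PLX5622 pools. The median log2 ratio of the members was -0.0062. No member was called in DG-like (0.0765% of genes were), CA1-like or CA2/3-like nuclei (0% in both), and the smallest adjusted p was 0.212, for Kdm4b in DG-like nuclei (0.61 ± 0.17). Diet moved with depth, since the PLX5622 pools held 700.5 and 779.5 median UMIs per INH-like nucleus against 3297 and 1690.5 in the Vehicle pools.

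Genotype was compared as both KO pools against both WT pools. No member was called in INH-like, DG-like, CA1-like or CA2/3-like nuclei (0%, 0.0085%, 0% and 0% of genes were). In INH-like nuclei 1 member was lower before adjustment, Sirt2 (-0.36 ± 0.17, adjusted p = 0.9998), where 1.23% of all genes were, and 0 were higher, where 1.68% were. The lowest of the pools for Sirt2 were Control-KO and Stress-KO, at 42.1 and 43.7 CPM, against 54.3 and 57.4 in the WT pools and 57.7 to 88.7 in the diet experiment.

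The RSD response in nIL-1R1-/- mice was compared as an interaction in INH-like nuclei, against the other 3 pairs together. The Vehicle and PLX5622 pairs among them come from the diet experiment, so genotype cannot be told apart from experiment in this contrast. No member and no gene was called (0%), and 4 members had a smaller ratio in the KO pair than in the other pairs before adjustment (3.3% of all genes), while 0 had a larger one (2.18%). Among those with a smaller ratio were Kat5 (TIP60, an H4 acetyltransferase, by -1.12 on the log2 scale), Hdac7 (-0.72), Kmt2b (-0.65) and Ehmt2 (-0.60). Fitted on each experiment alone, the log2 ratios of Kmt2b and Ehmt2 were 0.70 and 0.72 in the diet experiment. In the genotype experiment they were 0.14 and 0.13. Kat5 was at 18.6 CPM in Control-KO and 13.5 in Stress-KO, against 14.3 and 20.4 in the WT pools and 14.8 and 29.6 in the Vehicle pools, so only the KO pair was lower with RSD. Set against the WT pair alone, the KO pair is 1 pair against 1. The residual spread of that fit comes only from the Vehicle and PLX5622 pairs. Its p-values therefore do not measure the spread of WT or KO pools, and no count from it is given.

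For PLX5622, 5 members had a larger ratio than in the other pairs before adjustment (4.19% of all genes) and 1 a smaller one (3.8%), with none called (0.00719% of genes were). Ing4 (by 1.40 on the log2 scale), Kmt2e (0.83), Kmt2b (1.04), Setd5 (0.69) and Kat8 (1.20) were among the larger, and Kdm2b (-0.86) among the smaller. Control-PLX5622, the shallowest pool, had the lowest level of the 8 for Ing4 (28.9 CPM), Kmt2e (158), Kmt2b (56.6) and Kat8 (12.7). Set against the Vehicle pair alone, the PLX5622 pair is likewise 1 pair against 1. The residual spread of that fit comes only from the WT and KO pairs, so no count from it is given. The KO and PLX5622 interactions share their other pools.

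A feature that the choice of members did not use was gene length. Over the 53 members in INH-like nuclei, the log2 ratio for RSD went down with length (Pearson r = -0.63 and Spearman rho = -0.67 with log10 length), against r = -0.17 over the 12742 genes tested that had a length. Over members the r was -0.64 in DG-like, -0.48 in CA1-like and -0.68 in CA2/3-like nuclei, and over all genes -0.20, -0.23 and -0.26. Members are not independent replicates and share all 8 pools, so these are descriptions. The 10 members higher before adjustment in INH-like nuclei had a median length of 23.3 kb (7.74 to 78.0), and the other 43 had one of 67.7 kb.

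**Figure D4:**
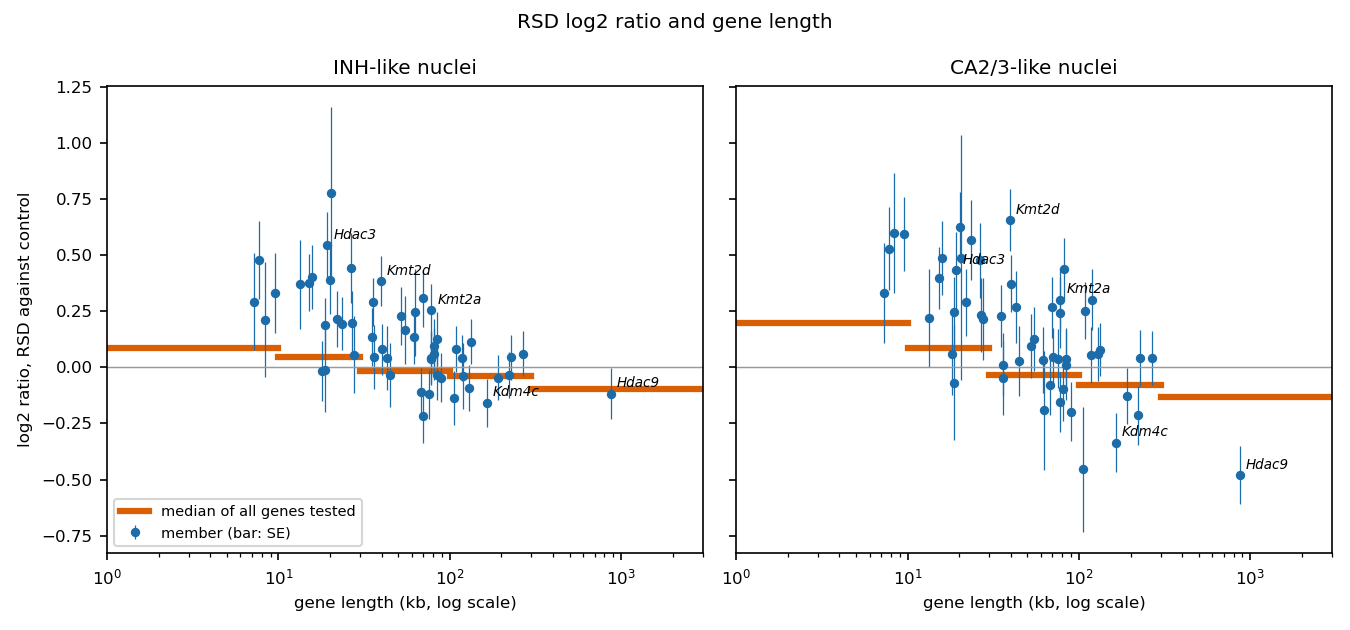
Log2 ratio of RSD to control (vertical axis) against gene length in kb on a log axis, in INH-like and CA2/3-like nuclei, with each member as a point with its SE and the median of all genes tested in 5 length bins as horizontal bars. In INH-like nuclei Hdac3 (19.2 kb) lies at 0.55 and Hdac9 (870 kb) at -0.12.

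By length, the 18 members of up to 30 kb had a median log2 ratio of 0.37, 0.75, 0.13 and 0.06 in the Vehicle, PLX5622, WT and KO pairs, and the 12 over 100 kb had -0.04, 0.16, -0.06 and 0.02. Over all genes the medians were 0.15 and 0.19 up to 30 kb and -0.10 and -0.07 over 100 kb in the Vehicle and PLX5622 pairs, and -0.01 to 0.01 in the WT and KO pairs. Short members and short genes in general both had their larger medians in the Vehicle and PLX5622 pairs. After the median of all genes of like length was subtracted, the members' median log2 ratio in INH-like nuclei was 0.14, with 41 above and 12 below. By construction, all genes of like length are split evenly there. The part of length in the ratios was not tested, and that of depth only by the thinning described above.

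The levels of each member were also compared between classes of nuclei, as a description, since the classes were built from these same nuclei. The members themselves were left out of the genes used for clustering. Of the 53 members, 19 had their highest mean in oligodendrocyte-like nuclei, 8 in astrocyte-like, 7 in CA2/3-like, 5 in INH-like, 5 in DG-like, 5 in oligodendrocyte precursor-like and 4 in CA1-like nuclei. How all genes divide in this way was not counted, so these numbers have no share to be set against. Oligodendrocyte-like nuclei were sparse, with 51652 UMIs in Control-PLX5622. For only 1 of the 19 did every pool of that class lie above every pool of the other classes. The 5 with their highest mean in INH-like nuclei were all deacetylases, namely Hdac3, Hdac5, Hdac6, Hdac9 and Sirt3. For Hdac9 the INH-like level was the highest in 8 of 8 pools (581 ± 115 CPM, SD, n = 8), followed by 420 ± 110 in astrocyte-like and 417 ± 120 in CA1-like nuclei, whose ranges overlap it. Hdac5 was at 108 ± 17.4 in INH-like nuclei and was the highest in 6 of 8 pools, above 71.9 ± 9.58 in CA1-like and 44.9 ± 6.44 in DG-like nuclei, while oligodendrocyte-like nuclei ranged from 0 to 142. Sirt3 was the highest in 0 of 8 pools, so its place rests on the mean alone.

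**Figure D5:**
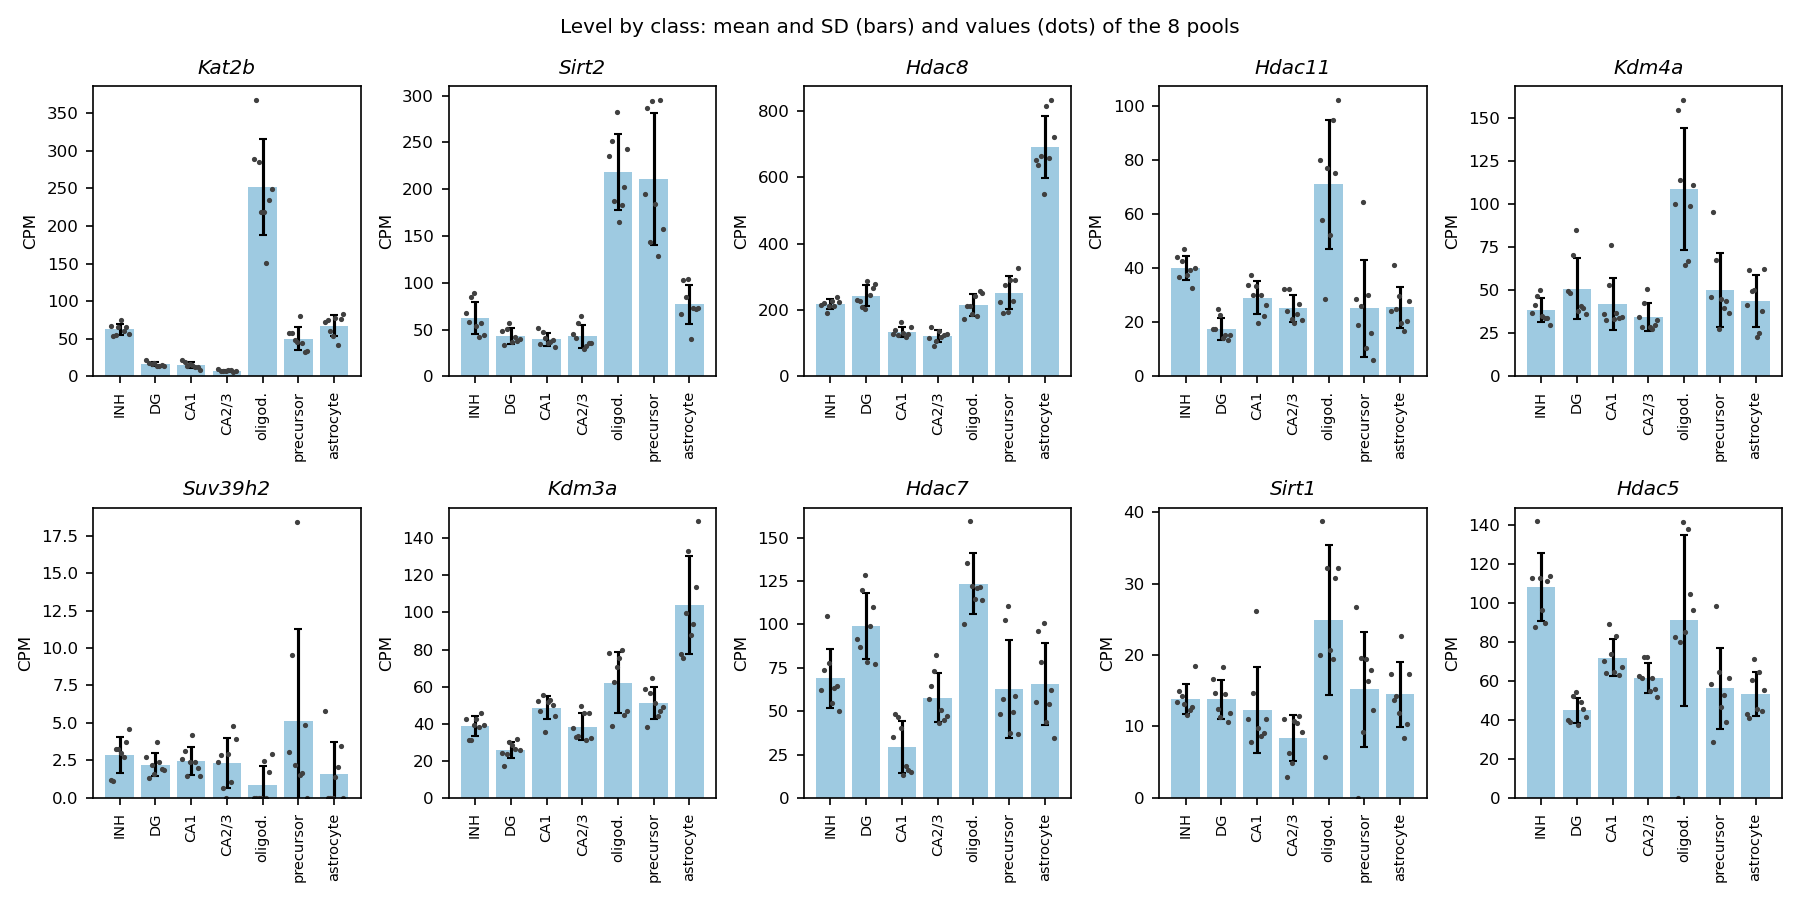
CPM by class of nuclei for the 10 members with the largest ratio of the highest to the median class, 1 panel per gene, with bars for the mean of the 8 pools, error bars for the SD and dots for the pools. Kat2b is highest in oligodendrocyte-like nuclei (mean 252) and Hdac8 in astrocyte-like nuclei (mean 691).

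The members that varied most between classes were Kat2b, Sirt2, Hdac8, Hdac11 and Kdm4a. Kat2b (PCAF), the paralog of Kat2a, was at 252 ± 64.0 CPM in oligodendrocyte-like nuclei (151 to 368 over pools), at 67.6 ± 14.3 in astrocyte-like and 62.5 ± 7.30 in INH-like nuclei, and at 7.50 ± 1.27 in CA2/3-like nuclei. Hdac8 was at 691 ± 94.6 in astrocyte-like nuclei (548 to 833) and at 326 or less in every pool of the other 6 classes. For these 2 members every pool of the highest class lay above every pool of all other classes. Sirt2 was at 219 ± 40.6 in oligodendrocyte-like and 211 ± 70.7 in oligodendrocyte precursor-like nuclei, which do not differ beyond their spread, and at 39.5 to 77.1 in the other 5 classes. Hdac11 (71.1 ± 24.0) and Kdm4a (109 ± 35.3) were also highest in oligodendrocyte-like nuclei, and Kdm3a in astrocyte-like nuclei (104 ± 26.4). The remaining 4 were Suv39h2, Hdac7, Sirt1 and Hdac5, whose highest class was 1.76 to 2.21 times the median class. With nuclei thinned to 500 UMIs, 19 members were again highest in oligodendrocyte-like nuclei, 10 in astrocyte-like and 4 in INH-like nuclei, and Sirt2 was then highest in oligodendrocyte precursor-like nuclei.

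A further 103 chromatin genes were taken for comparison, and those named below were picked after their values were seen. They are other histone enzymes, complex partners, readers with DNA methylation enzymes, and remodellers of nucleosomes. In INH-like nuclei 102 were tested, 0 were called for RSD, and 10 were higher and 2 lower before adjustment (4.42% and 3.7% of all genes). By list, 0 of 33 other histone enzymes, 5 of 40 complex partners, 2 of 11 readers and 3 of 18 remodellers were higher. The other histone enzymes had 17 above and 16 below 0 and a median log2 ratio of 0.0015. That list was not matched to the members, and many of its enzymes act on marks that no member sets. Ncor1, a corepressor that activates Hdac3, had a log2 ratio of 0.26 ± 0.11 (adjusted p = 0.537). The remodellers of the CHD and SWI/SNF families Chd5 (0.40 ± 0.13) and Smarcc2 (0.38 ± 0.15) had an adjusted p of 0.444 and 0.490. Over all nuclei Mecom was called (1.43 ± 0.21, adjusted p = 0.0265). Mecom is also one of the endothelial markers used here, and endothelial-like nuclei made up 0.366%, 0.244%, 0.847% and 0.553% of the Vehicle, PLX5622, WT and KO control pools and 0.614%, 0.782%, 1.01% and 0.811% of their stress pools, while within the 7 classes compared Mecom was higher with RSD in 0 to 2 of 4 pairs. The part of these shares in the call was not tested. In CA2/3-like nuclei Brd9, a bromodomain subunit of SWI/SNF (0.82 ± 0.16, adjusted p = 0.0243), and Trrap, the scaffold of the GCN5 and TIP60 complexes (0.54 ± 0.13, 0.0489), were among those called, both higher. Of all genes 0.699% were called higher there and 0.114% lower. Both rose most in the diet experiment. Brd9 went from 198 to 479 and from 156 to 464 CPM in the Vehicle and PLX5622 pairs. In the WT and KO pairs it went from 140 to 169 and from 145 to 191.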

How the data were processed

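Nuclei of mouse hippocampus were profiled by split-pool barcoding. The authors deposited raw UMI counts per gene and nucleus as 1 matrix per pool, aligned to mm39, and the submitters' processing notes also name Seurat 4.1.1. Whether counting used strand is not given in the sources used here. The 4 GEO samples are sublibraries that each hold every pool, so pools were the samples compared, as the treatment labels map them.

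Nuclei with over 20% mitochondrial UMIs were dropped. Clusters were made with scanpy 1.11.5 and leidenalg 0.10.2 (2000 variable genes, 30 components, 15 neighbours, resolution 1.0) and named "X-like" from markers where a score led the next by 2 times or more, 3 or more markers were detected and an own marker was among the top 40 genes. This naming rule was revised once the clusters had been seen, ahead of all comparisons between groups. No doublet caller was run, and 9020 nuclei with 3 or more markers of another class were left out in an alternative. No barcode was shared by pools (0).

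UMIs were summed per pool and class and tested with edgeR 4.0.16 (quasi-likelihood test, TMM, filterByExpr, pair and RSD as terms), with Benjamini-Hochberg adjustment over all genes tested in a class. The pairs come from the design, where a control pool and its stress pool have 1 diet or genotype, and the deviations of a pair from the group means correlated at 0.08 to 0.20 in INH-like nuclei, against highest values with pools of another pair of 0.06 to 0.21 (for the KO pair 0.13 with its own and 0.21 with another). In CA2/3-like nuclei the correlations within the Vehicle, PLX5622, WT and KO pairs were 0.178, 0.0937, 0.141 and 0.198. The highest with pools of another pair were 0.0945, 0.0944, 0.216 and 0.199, so only the Vehicle pair was closest to its own. CPM are UMIs per 1e6 UMIs of the class in a pool. Exact Poisson intervals cover counting error only. Alternatives were DESeq2 1.42.0, limma 3.58.1 (voom), other scalings, no filter, no pairing, nuclei thinned to 500 UMIs (8013 with fewer were left out), other clusterings, a mitochondrial limit of 5% and each pair left out. The fits of each experiment alone, of each INH-like cluster, of RSD with experiment and of gene length were added after the data were seen. The fits were tested on simulated data.

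The members and gene lists were chosen with earlier results of these data known, and the study itself picked a chromatin gene set on these samples, so the direction of the members is not independent evidence. Members were named by adjusted p, by the smallest p and most UMIs in each role group, by going the same way in all 4 pairs in INH-like nuclei, and by the ratio of the highest to the median class. Any other member or gene named was chosen after its values were seen. Promoter windows were read from GRCm39 at the start of the Ensembl canonical transcript in GENCODE vM39. Results for 1 of the comparison genes are not reported here, though it stays in the counts.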

Additional observations from a re-analysis of the deposited data

Results flagged for a closer look

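Of 40 groups of 4 pools checked for 1 pool apart from the rest by Dixon's ratio, 4 had one. Chance gives about 1 in 20 among replicates, but the 4 pools of a group are of different conditions. The genes were also named partly by their values for RSD, so that rate need not hold here. A pool apart cannot be told from its condition. In INH-like nuclei Stress-Vehicle stood above the other RSD pools for Hdac5 (142 CPM against 111 to 114), for Nsd3 (223 against 202 to 206) and for Setd1b (72.8 against 35.1 to 40.5). Control-Vehicle stood above the other control pools for Kat2a (21.1 CPM against 14.6 to 15.0). All 4 of these values are Vehicle pools.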

How the results depend on the processing

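In INH-like nuclei the number of members past the threshold for RSD stayed at 0 under every alternative except the diet experiment alone, where it was 5, and the number higher at an unadjusted p under 0.05 ran from 2 to 13 over 17 alternatives. It was 2 in the genotype experiment alone, 5 with thinned nuclei and 6 without the Vehicle pair, against 10 over all pools. The 5 members with a larger ratio in the diet experiment became 0 with DESeq2 and 2 with thinned nuclei. With the diet experiment alone (without both KO pools and WT pools) the count was 9 in DG-like, 6 in CA1-like and 13 in CA2/3-like nuclei and 9 over all nuclei, against 0, 0, 1 and 0 over all 8 pools. With no filter on low counts these 4 counts were 1, 2, 5 and 7. DESeq2 gave 1 in CA1-like nuclei, 3 in CA2/3-like nuclei and 1 over all nuclei, limma-voom gave 1 and 3 in CA1-like and CA2/3-like nuclei, and scaling by total UMIs gave 1 in CA1-like nuclei. Clustering at a resolution of 0.6 gave 1 in CA1-like and 0 in CA2/3-like nuclei. In CA2/3-like nuclei the count was 0 without the replicate block, 0 with thinned nuclei and 2 without nuclei with markers of another class. Leaving out each pair in turn gave 0 to 1 in DG-like and 0 to 4 in CA2/3-like nuclei. Without the block of pairs no other count of members past the threshold moved. Calls over all genes moved too, from 0 to 157 in INH-like, 0 to 368 in DG-like and 0 to 360 in CA1-like nuclei. They ran from 1 to 951 in CA2/3-like nuclei and from 0 to 872 over all nuclei. Apart from the fits of each experiment alone in the neuronal classes, no share over all genes is given for an alternative. These counts of members therefore cannot be set against one. Kmt2d in CA2/3-like nuclei kept its direction under 17 alternatives, with log2 ratios of 0.37 to 0.96 and adjusted p of 2.283e-06 to 0.596, and was called in 10.

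Of the log2 ratios of named members, 7 changed sign. In INH-like nuclei Hdac8 (-0.03 over all pools) was at 0.0596 with thinned nuclei, 0.0761 in the genotype experiment alone and -0.0728 to 0.0161 with 1 pair left out. In the same class Hdac9 was at 0.1032 in the genotype experiment alone, and Nsd3 at -0.0208 in the genotype experiment alone and -0.0053 to 0.0858 with 1 pair left out. Setd1b in CA1-like nuclei was at -0.0070 with thinned nuclei. The cause was not tested in any of these. Depth limits the values of the PLX5622 pools most, and members with few UMIs, such as Suv39h2, Sirt6 and Sirt1, are the least precise.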
